A study of Mus musculus with 20 samples.

Results

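The 464 windows described here are the stretches of the mouse genome at which wild-type promyelocytes carried less CpG methylation late in maturation than early. They were drawn from 84524 fixed 1000 bp windows of chromosomes 1 to 19 (mm9), each with at least 3 cytosines covered by at least 10 reads in all 20 libraries, and make up 0.549% of them. A window was taken when the mean methylation level of the 5 wild-type CD34- libraries lay at least 15 percentage points below that of the 5 wild-type CD34+ libraries, with the highest CD34- level under the lowest CD34+ level. The level of a window is the percent of its summed reads that are methylated, an average over the sorted cells in which fewer methylated cells and less methylation per cell cannot be told apart. The windows were thus selected on wild-type values, which are given only as a description. The tests below use the PML-RARa libraries, which the choice did not use.

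The study measured promyelocytes from mice of the FVB/n background by enhanced reduced representation bisulfite sequencing, in which CpG-rich restriction fragments are sequenced after bisulfite treatment, so that methylated cytosines are read as C and unmethylated ones as T. The groups were PML-RARa transgenic CD34- (late) and CD34+ (early) promyelocytes and Wild-Type (WT) CD34- and CD34+ promyelocytes, with 5 libraries each. The age of the mice, the promoter of the transgene and whether libraries came from separate mice are not given in the sources used here, so p-values measure the spread between these libraries, which may be technical. Methylation calls carry no expression of CD34 or of lineage genes, so the identity of the cells rests on the labels. Within each group all libraries differed by more than sampling noise. Earlier results of these data had marked 5 libraries as more scattered than the rest, PML-RARa CD34- replicates 6 and 12, PML-RARa CD34+ replicates 5 and 11 and WT CD34+ replicate 1, and values without them are given where results rest on them. Replicates carry the leading number of the sample title, and values are listed in the order 4, 6, 12, 14 and 20 (PML-RARa CD34-), 3, 5, 11, 13 and 19 (PML-RARa CD34+), 2, 8, 10, 16 and 18 (WT CD34-) and 1, 7, 9, 15 and 17 (WT CD34+).

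Promyelocytes are granulocyte precursors that fill with primary granules before they stop dividing and become neutrophils, and CD34, a surface protein of stem and progenitor cells, is lost on the way. PML-RARa is the fusion of the PML protein with the retinoic acid receptor alpha that causes acute promyelocytic leukaemia. It binds DNA as an altered receptor and blocks maturation at the promyelocyte stage. Methylation of CpG sites is copied by DNMT1 at each division and is lost when copying lags or when TET enzymes oxidise the mark. CpG islands at gene starts are mostly free of methylation, while CpGs elsewhere are mostly methylated.

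The windows can be read at single CpGs where a RefSeq promoter sequence covers them. In 4 of the 464 windows, cytosines that were measured in all 20 libraries lay inside the promoter sequence of a gene (250 bases before to 50 after its start), and 3 of these are printed to show levels CpG by CpG. They were chosen after their values had been seen. The fourth, the predicted gene Gm35936 at chr5:90622001-90623000, had 4 measured CpGs whose PML-RARa differences had both signs, at 2.58, -25.5, -12.2 and 11.6 points. The letters are those of RefSeq for GRCm38.p6 on the plus strand, 5' to 3'. They were set into mm9 by the spacing of their own CpGs, and capitals mark the CpGs measured within the window.
Abca13, mm9 chr11:9091695-9091994: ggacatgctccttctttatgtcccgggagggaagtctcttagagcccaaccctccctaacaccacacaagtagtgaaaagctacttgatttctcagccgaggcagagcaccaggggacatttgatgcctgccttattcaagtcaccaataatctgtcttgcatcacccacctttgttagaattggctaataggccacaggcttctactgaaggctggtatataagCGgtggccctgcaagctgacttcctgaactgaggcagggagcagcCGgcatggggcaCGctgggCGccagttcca
Tbc1d22a, mm9 chr15:86107855-86108154: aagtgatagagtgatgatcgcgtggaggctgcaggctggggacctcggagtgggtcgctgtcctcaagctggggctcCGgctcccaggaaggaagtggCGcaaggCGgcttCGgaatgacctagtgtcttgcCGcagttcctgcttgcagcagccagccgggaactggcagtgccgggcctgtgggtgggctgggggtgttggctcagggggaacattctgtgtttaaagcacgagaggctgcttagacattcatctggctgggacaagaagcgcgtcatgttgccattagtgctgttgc
Gm24463, mm9 chr9:88961417-88961716: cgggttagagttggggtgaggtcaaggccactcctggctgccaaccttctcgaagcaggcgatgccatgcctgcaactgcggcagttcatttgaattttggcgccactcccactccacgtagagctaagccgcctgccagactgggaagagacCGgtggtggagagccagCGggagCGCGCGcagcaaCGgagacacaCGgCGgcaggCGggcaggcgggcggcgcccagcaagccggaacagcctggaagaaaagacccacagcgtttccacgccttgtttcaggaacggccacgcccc
Abca13 belongs to the ABC transporter family of membrane proteins, Tbc1d22a has the TBC domain of proteins that switch off Rab GTPases, and Gm24463 is a predicted gene. All 4 capital CpGs of Abca13 lie within 40 bases of the gene's start. All 9 of Gm24463 lie between positions -97 and -42, counted from its start.

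At the start of Abca13, the window chr11:9091001-9092000 was nearly free of methylation in CD34- promyelocytes of both genotypes. The PML-RARa CD34- libraries lay at 3.79%, 5.41%, 4.54%, 4.47% and 4.05%, and the PML-RARa CD34+ libraries at 27.6%, 68.8%, 4.17%, 25.8% and 32.3%. PML-RARa CD34+ replicate 11 was thus as low as the CD34- libraries, while replicate 5 was the highest of all. The WT CD34- libraries lay between 2.88% and 11.7%, and the WT CD34+ libraries between 40.6% and 65.5%. Along the sequence, the CD34+ levels were higher at each CpG further into the gene. The CpG at position -24 from the start had 0% in PML-RARa CD34- and 13.7% in PML-RARa CD34+ cells. The last CpG, read on the minus strand 40 bases after the start, had 6.72% in PML-RARa CD34- and 48.1% in PML-RARa CD34+ cells. Read on the plus strand at position 39, it had 17.8% in PML-RARa CD34- and 50.9% in PML-RARa CD34+ cells. The WT means at position -24 were 0.994% in CD34- and 33.4% in CD34+ cells. At the last CpG they were 10.5% in CD34- and 69.4% in CD34+ cells on the minus strand. On the plus strand they were 17.9% in CD34- and 78.0% in CD34+ cells. The difference of -27.3 points in PML-RARa did not pass the test over all windows (adjusted p = 0.251, quasi-binomial model).

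The Tbc1d22a sequence shows neighbouring CpGs that differed widely in level. The CpG at position -152 averaged 14.4% in PML-RARa CD34- and 57.5% in PML-RARa CD34+ cells, a difference of -43.1 points that was close to the -43.8 points of WT. The CpG at position -173 averaged 1.38% in PML-RARa CD34- and 10.2% in PML-RARa CD34+ cells, against 0.557% in WT CD34- and 24.3% in WT CD34+ cells. All 8 cytosines inside the sequence were lower in the CD34- fraction of both genotypes. The window as a whole, with 11 cytosines over 900 bp, averaged 36.2% in PML-RARa CD34- and 59.5% in PML-RARa CD34+ cells, with overlapping libraries (adjusted p = 0.724, quasi-binomial model). At Gm24463, a CpG-dense sequence at intermediate level, the 9 cytosines ranged from 48.6% to 59.8% in PML-RARa CD34- and from 54.9% to 69.8% in PML-RARa CD34+ cells. Their differences in PML-RARa lay between -15.8 and 0.184 points. Its 10 PML-RARa libraries overlapped, at 39.5% to 69.1% in CD34- and 47.3% to 74.7% in CD34+ cells.

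Across all 464 windows, PML-RARa promyelocytes also carried less methylation in the CD34- fraction, by about 13 points at the median. The mean level was lower in CD34- than in CD34+ PML-RARa cells at 432 windows (93.1%), where 55.3% of all 84524 windows were lower. The median difference in PML-RARa was -12.8 points (quartiles -19.2 and -6.91), beside -0.0571 points over all windows. The WT differences that chose the windows had a median of -24.2 points and ran from -68.0 to -15.02. A difference of at least 10 points downward was seen in PML-RARa at 285 windows (61.4%, background 2.52%), and an unadjusted p below 0.05 with a lower level at 270 (58.2%, background 4.51%). In 115 windows (24.8%, background 0.765%), all 5 PML-RARa CD34- libraries lay below all 5 PML-RARa CD34+ libraries. Members lie at intermediate levels more often than other windows, so the same shares were taken over the 14699 windows whose PML-RARa CD34+ mean was 20% to 80%. There, 337 of the 365 members were lower in CD34-, against 53.8% of the windows, and 85 did not overlap, against 1.24%.

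After adjustment over all windows, 6 windows were called lower in PML-RARa CD34- cells (adjusted p below 0.05 and at least 10 points, quasi-binomial model), and all 6 are among the 464. They are 1.29% of the members, beside 0.0071% of all windows. On the PML-RARa libraries alone, 0 windows were called higher by the quasi-binomial model or by limma, and 1 member that was higher had an unadjusted p below 0.05. A fit of all 4 groups together, which shares the spread with the WT libraries that chose the windows, called 52 windows lower, 39 of them members, and 9 higher. No call held once flowcell was a term (adjusted p of 1 at all 6) or the consecutive title numbers a replicate block (adjusted p from 0.116 to 0.195), both in the quasi-binomial model. With flowcell as a term, the PML-RARa fractions are compared only within the flowcell that held both, at 2 CD34- libraries against 3 CD34+ libraries. Within that flowcell the differences at the 6 called windows lay between -33.8 and -12.3 points, with no test. The count also rests on few libraries. Leaving out PML-RARa CD34+ replicate 3 left 2 calls, leaving out CD34+ replicate 19 or CD34- replicate 12, 14 or 20 left 3 each, and leaving out the 5 libraries of high scatter left 0. Without those 5 libraries 467 windows met the rule, of which 435 were lower in PML-RARa CD34- cells (258 with an unadjusted p below 0.05), with a median difference of -12.3 points. No overlap is more common with 3 libraries against 3, and was then seen in 234 (50.1%), beside 6.29% of all windows. The differences at the 6 called windows then lay between -32.4 and -11.3 points (adjusted p from 0.366 to 0.463, quasi-binomial model).

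**Figure D1:**
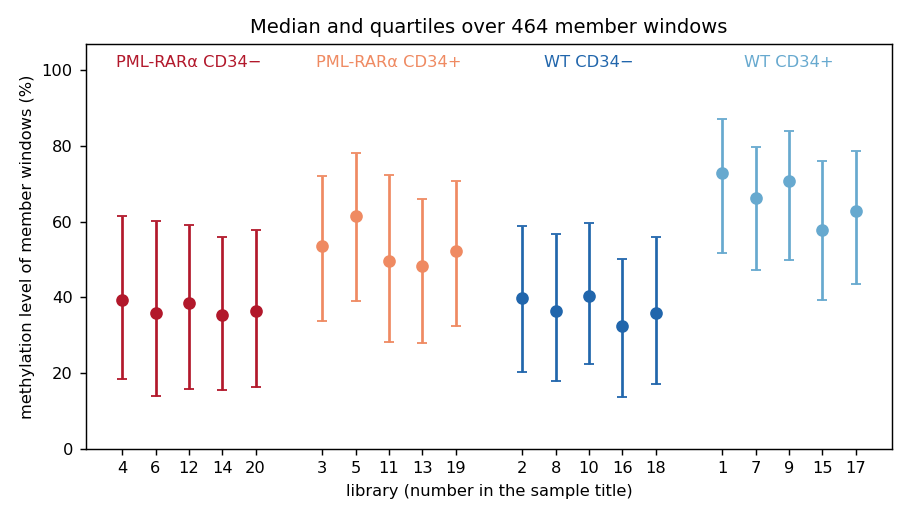
Methylation level of the 464 windows in each of the 20 libraries, in percent, with PML-RARa left of WT and CD34- left of CD34+ within each genotype; points are medians and bars reach the quartiles over windows. The medians of PML-RARa CD34- libraries lie between 35.5% and 39.3%, those of PML-RARa CD34+ libraries between 48.3% and 61.4%.

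The median level over the windows was taken in each library. In PML-RARa CD34- libraries it was 39.3%, 35.9%, 38.5%, 35.5% and 36.5%, and in PML-RARa CD34+ libraries 53.5%, 61.4%, 49.5%, 48.3% and 52.4%. In WT CD34- libraries it was 39.7%, 36.5%, 40.5%, 32.4% and 35.9%, and in WT CD34+ libraries 72.9%, 66.2%, 70.8%, 57.9% and 62.8%. The CD34- libraries of both genotypes shared 1 range, while the PML-RARa CD34+ libraries lay below those of WT except for replicate 5, which lay above the lowest WT library. Window by window, PML-RARa minus WT had a median of 0.169 points in CD34- and of -10.98 points in CD34+ cells. WT values chose the windows, so this contrast is a description with no test. Over all windows the corresponding medians were -0.0158 points in CD34- and -0.0434 points in CD34+ cells.

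**Figure D2:**
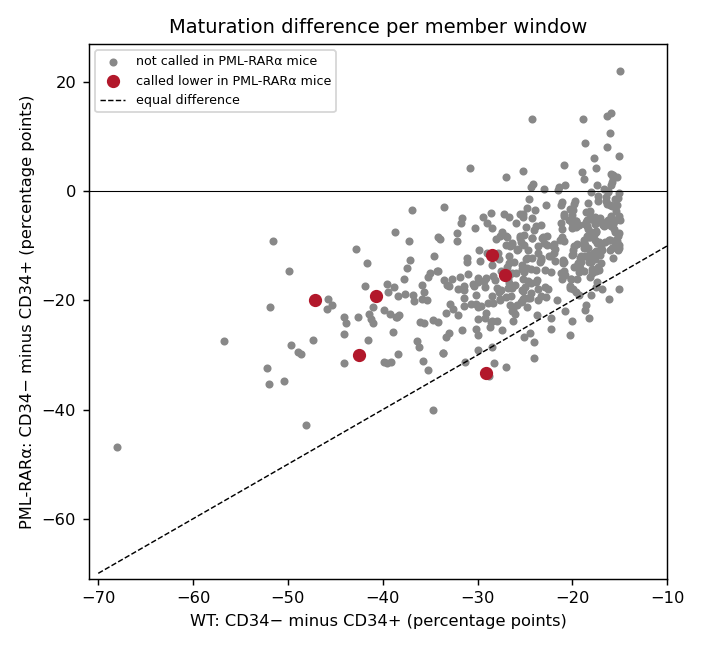
Difference CD34- minus CD34+ in PML-RARa (vertical axis, percentage points) against the same difference in WT (horizontal axis, percentage points), 1 point per window, with the 6 called windows in red and a dashed line of equal differences. Most of the 464 points lie below 0 and above the line of equal differences, while 21 lie below that line and 32 lie above 0. The windows were chosen by their WT differences, which favours points above the line.

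The size of the PML-RARa difference followed that of WT over the windows, with a Pearson r of 0.613 and a Spearman rho of 0.615 over 464 windows. These share their libraries and are not independent, so the values describe the windows only. The PML-RARa difference was a median of 0.533 of the WT difference (quartiles 0.325 and 0.697), and was the larger of the pair at 21 windows. The rule chose windows for large WT differences, which by itself favours WT as the larger value, so the ratio is a description only. The rule was then turned to the other genotype. Applied to PML-RARa libraries, it took 155 windows (0.183% of all), where the median difference was -20.3 points in PML-RARa and -23.8 points in WT. Of these 155, 137 (88.4%) were lower in WT CD34- cells, beside 59.7% of all windows. The loss was larger in WT than in PML-RARa at 77 of the 155 (49.7%). The sets shared 83 windows, 17.9% of the 464 and 53.5% of the 155. The other 72 had a median WT difference of -7.58 points. At the 155, PML-RARa minus WT had a median of -5.50 points in CD34- and of -5.60 points in CD34+ cells.

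Of the 10 windows with the largest WT differences, 1 lay within 5 kb of a gene start that could be placed in mm9. Gene names below give the nearest of 10355 RefSeq gene starts placed by their CpG spacing, which favours CpG-dense starts, so a nearer gene may exist. The largest, chr9:50701001-50702000, lies 36.5 kb on the transcribed side of the start of Ppp2r1b, which encodes a scaffold subunit of the phosphatase PP2A. Its level was 6.33%, 17.8%, 9.04%, 1.95% and 5.39% in PML-RARa CD34- libraries and 64.9%, 89.5%, 50.4%, 34.3% and 35.8% in PML-RARa CD34+ libraries. In WT CD34- libraries it was 14.3%, 2.19%, 10.3%, 0.0938% and 1.38%, and in WT CD34+ libraries 68.1%, 76.6%, 89.6%, 62.7% and 71.2%. The fractions did not overlap in either genotype. The PML-RARa difference of -46.9 points was also the most negative of all 84524 windows, yet with a spread of 23.0 points (SD) between the CD34+ libraries its adjusted p was 0.319.

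Of the 9 windows next in WT difference, all were lower in PML-RARa CD34- than CD34+ cells on average and 5 had libraries that did not overlap there. At chr12:82043001-82044000, 2.99 kb upstream of the start of the splicing factor gene Srsf5, PML-RARa CD34- libraries lay between 0% and 18.1% and PML-RARa CD34+ libraries between 24.4% and 60.3%. At chr5:134691001-134692000, 31.6 kb downstream of the start of Gtf2ird2, a relative of the transcription factor gene Gtf2i, the PML-RARa means were 6.93% ± 3.63 in CD34- and 41.7% ± 11.7 in CD34+ cells (SD, n = 5 each). At chr19:18655001-18656000, 50.8 kb from the start of Ostf1, they were 8.13% ± 6.45 in CD34- and 43.4% ± 17.3 in CD34+ cells (SD, n = 5 each). WT differences at these 3 windows were -52.3, -50.4 and -52.0 points. At chr2:31197001-31198000, 96.1 kb from the start of the calcium sensor gene Ncs1, and at chr14:70966001-70967000 the PML-RARa differences were -21.2 and -29.4 points. None of the 5 passed the test in PML-RARa (adjusted p from 0.0993 to 0.585, quasi-binomial model).

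PML-RARa libraries overlapped at the other 4 windows of the largest WT differences. The clearest case is chr10:120285001-120286000, 50.5 kb from the start of Msrb3, which encodes a methionine sulfoxide reductase. There PML-RARa CD34- libraries lay at 32.3%, 36.8%, 41.3%, 55.4% and 27.9%, and PML-RARa CD34+ libraries at 47.0%, 80.7%, 33.3%, 46.3% and 32.3%. The WT means were 27.3% ± 16.2 in CD34- and 78.9% ± 13.3 in CD34+ cells (SD, n = 5 each). The PML-RARa difference of -9.19 points thus lay within the spread of its libraries, beside -51.6 points in WT. At chr19:10103001-10104000 near Rab3il1, which encodes a Rab3A-interacting protein, the PML-RARa difference was -14.6 points and the WT difference -49.9 points, with an SD of 25.8 points between WT CD34+ libraries. At chr15:59538001-59539000, which has no placed gene start within 100 kb, the PML-RARa difference was -27.5 points and the WT difference -56.8 points. At chr10:95097001-95098000, 70.7 kb upstream of Nudt4, the difference was -28.2 points in PML-RARa and -49.6 points in WT.

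**Figure D3:**
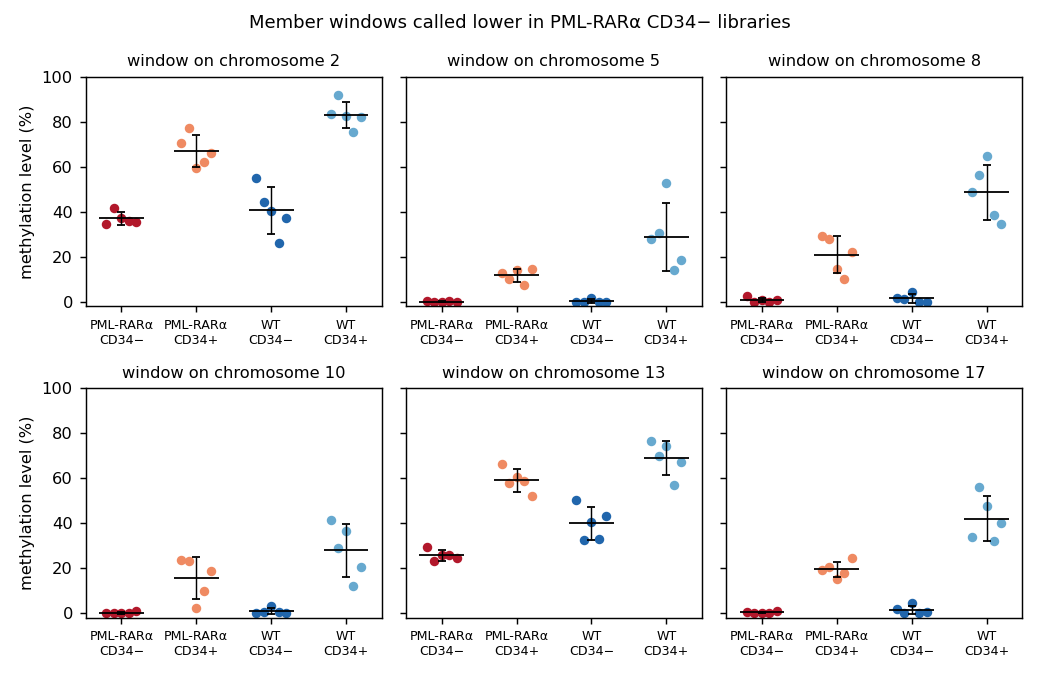
Methylation level in percent of the 6 windows called lower in PML-RARa CD34- cells, 1 point per library and 1 panel per window, with the mean and SD as lines and PML-RARa left of WT and CD34- left of CD34+. At 4 of the 6 the PML-RARa CD34- mean is below 1%.

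The 6 windows called in PML-RARa fall into 4 that were almost unmethylated in CD34- cells and 2 that kept an intermediate level. The smallest p belonged to chr17:56421001-56422000, 5.31 kb upstream of the start of Ticam1, which encodes the adaptor TRIF of Toll-like receptor signalling. PML-RARa CD34- libraries lay at 0.465%, 0.155%, 0%, 0.236% and 0.923%, and PML-RARa CD34+ libraries at 19.0%, 20.5%, 15.4%, 18.1% and 24.4%. The library at 0% had 229 reads there, which allows a level of up to 1.31% (counting error only). The difference was -19.1 points (adjusted p = 0.00209, quasi-binomial model), and the WT means were 1.35% ± 1.87 in CD34- and 42.0% ± 10.0 in CD34+ cells (SD, n = 5 each). Its 3 cytosines span 11 bp, so the value rests on a short stretch.

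The same form was seen at 3 other called windows. At chr5:144168001-144169000, 36.7 kb from the start of Grid2ip, PML-RARa CD34- libraries lay at 0.206%, 0%, 0%, 0.319% and 0%, and PML-RARa CD34+ libraries at 12.7%, 10.3%, 14.3%, 7.38% and 14.5% (adjusted p = 0.00595, quasi-binomial model). The 3 libraries at 0% had 363 to 689 reads, which allow up to 0.826%. WT CD34- libraries there were at 0% in 4 of 5 and at 1.72% in the other, and WT CD34+ libraries lay between 14.1% and 52.9%. At chr8:125806001-125807000, 36.0 kb from the start of Fanca, a gene of DNA crosslink repair, PML-RARa means were 0.909% ± 1.02 in CD34- and 20.9% ± 8.20 in CD34+ cells (SD, n = 5 each). WT means there were 1.57% ± 1.88 in CD34- and 48.7% ± 12.4 in CD34+ cells (SD, n = 5 each). The PML-RARa difference of -19.98 points had an adjusted p of 0.0148 in the quasi-binomial model.

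The last of the 4, chr10:59791001-59792000, lies 18.1 kb upstream of the start of Vsir, which encodes the immune checkpoint protein VISTA. PML-RARa CD34- libraries were at 0% in 4 of 5 (203 to 811 reads, which allow up to 1.48%) and at 0.892% in the other. PML-RARa CD34+ libraries lay at 23.8%, 23.1%, 2.13%, 9.94% and 19.0%, again with replicate 11 lowest. The difference was -15.4 points (adjusted p = 0.0308, quasi-binomial model), and WT means were 0.850% ± 1.28 in CD34- and 27.9% ± 11.8 in CD34+ cells (SD, n = 5 each). Of all 464 windows, 17 had a PML-RARa CD34- mean below 1%, and 9 had a WT CD34- mean below 1%, in values that the rule used. The share of all windows below 1% was not taken. Below 20% in PML-RARa CD34- cells lay 27.4% of the members and 32.6% of all windows, so low levels are not particular to the members.

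The other 2 called windows kept a level well above 0. At chr13:44504001-44505000, with no placed gene start within 100 kb, PML-RARa CD34- libraries lay at 29.6%, 23.0%, 25.9%, 25.8% and 24.4%, and PML-RARa CD34+ libraries at 66.3%, 57.8%, 60.6%, 58.9% and 52.0% (adjusted p = 0.00526, quasi-binomial model). It is the only one of the 6 with a larger difference in PML-RARa (-33.4 points) than in WT (-29.1 points). Its WT means were 39.95% ± 7.39 in CD34- and 69.1% ± 7.63 in CD34+ cells (SD, n = 5 each). At chr2:91486001-91487000, 3.45 kb from the start of the zinc finger gene Zfp408, PML-RARa means were 37.1% ± 2.86 in CD34- and 67.1% ± 6.99 in CD34+ cells (SD, n = 5 each). The difference was -30.0 points in PML-RARa (adjusted p = 0.0207, quasi-binomial model) and -42.5 points in WT.

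A minority of windows went the other way in PML-RARa, and none passed the test. The level was higher in PML-RARa CD34- than CD34+ cells at 32 windows, by 10 points or more at 6. The most positive was chr2:165064001-165065000, 4.26 kb upstream of the start of Cdh22, a cadherin gene. PML-RARa CD34- libraries lay at 54.2%, 78.0%, 40.9%, 42.9% and 39.6%, and PML-RARa CD34+ libraries at 30.6%, 13.9%, 30.4%, 31.0% and 39.1%. The lowest CD34- library lay just above the highest CD34+ library, and the difference of 22.1 points had an adjusted p of 0.692 in the quasi-binomial model. At chr5:116984001-116985000, 57.3 kb from Srrm4, the difference was 14.4 points, with PML-RARa CD34+ replicate 11 at 37.3% beside 77.1% to 84.9% in the other 4. At chr8:91370001-91371000 the difference was 13.8 points, with PML-RARa CD34- libraries between 74.5% and 95.5% and PML-RARa CD34+ libraries between 45.4% and 82.1%.

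The Cdh22 window is also one of the 3 that stood just inside the threshold, with WT differences of -15.02, -15.03 and -15.04 points. The others were chr2:27448001-27449000, at a difference of -5.17 points in PML-RARa, and chr11:101196001-101197000, near the proteasome activator gene Psme3, at 6.49 points. The 3 windows just outside had WT differences of -14.91, -14.90 and -14.88 points and PML-RARa differences of 5.94, 0.822 and -22.7 points. A difference of 15 points with or without overlap was present in 709 windows, and 56 windows met the mirror rule with higher CD34- levels.

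Grouped by their WT CD34+ level, which the rule used, the windows differed in how many were without overlap in PML-RARa, and this was not tested. The 43 windows at 15% to 30% in WT CD34+ cells had medians of -9.78 points in PML-RARa and -19.1 points in WT, and the PML-RARa libraries did not overlap in 24 of them (55.8%), beside 1.61% of all windows at that level. At 30% to 50% the 94 windows had medians of -13.1 points in PML-RARa and -24.8 points in WT, with no overlap in 34 (36.2%, beside 1.73%). At 50% to 70% the 122 windows had medians of -16.1 points in PML-RARa and -27.3 points in WT, with no overlap in 29 (23.8%, beside 1.51%). The 205 windows at 70% or more had medians of -11.9 points in PML-RARa and -23.3 points in WT, with no overlap in 28 (13.7%, beside 0.754%). All 43 windows of the lowest class were lower in PML-RARa CD34- cells, beside 52.6% of all windows at that level. In the highest class 187 of the 205 were, beside 58.2%.

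The windows held few measured cytosines. Cytosines not covered in all 20 libraries are not counted, so the CpG content of the sequence is not known. The median was 4 measured cytosines per window, beside 5 over all windows, and 58.0% had 3 or 4, beside 42.5%. A single member, chr11:80291001-80292000, had 20 cytosines or more (0.216%), where 15.9% of all windows did. The measured cytosines spanned a median of 179 bp, beside 197 bp, and were read a median of 489.5 times per library, beside 607. Windows with few cytosines have fewer reads and thus more counting error, and their part in which windows met the rule was not tested.

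The exception, chr11:80291001-80292000, lies 49.4 kb from the start of the proteasome gene Psmd11 and has 19 measured CpG positions over 929 bp. PML-RARa CD34- libraries lay at 33.7%, 28.3%, 34.6%, 33.7% and 35.8%, and PML-RARa CD34+ libraries at 46.6%, 49.8%, 46.9%, 43.7% and 44.7%. The fractions were apart by more than the spread within each, with a difference of -13.1 points and an adjusted p of 0.0857 (quasi-binomial model). At the other end, chr10:79250001-79251000, 5.82 kb upstream of Palm, which encodes the membrane protein paralemmin, rests on 2 CpG positions within 5 bp. Its PML-RARa means were 36.9% ± 7.48 in CD34- and 68.5% ± 13.8 in CD34+ cells (SD, n = 5 each), with no overlap and an adjusted p of 0.488 in the same model.

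Single cytosines followed their windows. Of the 2240 cytosines in the 464 windows, 84.1% had a lower mean in PML-RARa CD34- than CD34+ cells, beside 37.5% of all cytosines in windows. Windows with many cytosines weigh more in the latter share, and no share at like level was taken. Counted by window, 93.1% of members and 55.3% of all windows were lower. Every measured cytosine of the window was lower in PML-RARa at 249 windows (53.7%) and in WT, whose values chose the windows, at 382. The same share over all windows was not taken, and windows with few cytosines meet it more easily. The median difference of single cytosines was -11.9 points in PML-RARa and -23.7 points in WT. Within a window, the differences of its cytosines in PML-RARa had a median SD of 9.74 points.

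**Figure D4:**
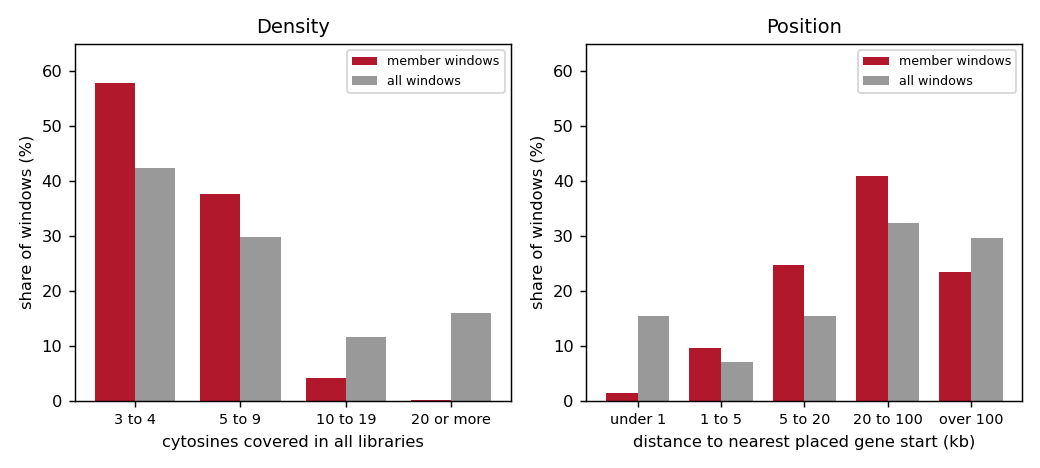
Share of windows, in percent, by number of cytosines covered in all libraries (left panel) and by distance from the nearest placed gene start in kb (right panel), for the 464 windows (red; 457 in the right panel) and all windows (grey). Windows with 20 cytosines or more make up 0.216% of the members, against 15.9% of all windows. Within 1 kb of a placed start lie 1.31% of the members, against 15.4% of all windows. The rule leaves out every window under 15% in WT CD34+ cells, and all windows are shown without matching for level.

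Few of the windows lay at the gene starts that could be placed. Placing needed at least 6 listed CpG cytosines in the promoter sequence, and 33.0% of promoters were placed. Members held few measured cytosines, and the rule leaves out every window under 15% in WT CD34+ cells. Below 20% in WT CD34+ cells lay 32.2% of all windows and 1.94% of the members. The part of either in the low share of members at placed starts was not tested, and shares at like level were not taken. Within 1 kb of a placed start there were 6 of 457 (1.31%), beside 15.4% of all windows. From 1 to 5 kb there were 9.63%, beside 7.01%, from 5 to 20 kb 24.7%, beside 15.5%, and from 20 to 100 kb 40.9%, beside 32.4%. Beyond 100 kb the shares were 23.4% for members and 29.7% for all windows. The 350 windows within 100 kb stood nearest to 324 different genes, and 214 (61.1%) were on the transcribed side of the start, beside 58.6% of all windows. The PML-RARa difference varied little with distance, with medians of -14.2 points within 1 kb, -12.3 points at 1 to 5 kb, -13.9 points at 5 to 20 kb, -12.6 points at 20 to 100 kb and -11.4 points beyond. No placed start was available on chromosome 18, whose 7 windows are not counted here.

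Most of the windows had no other member within 100 kb, though tested windows beside a member were members more often than all windows. Chromosome 11 held 40, the most, and chromosome 18 held 7, the fewest. Per 1000 tested windows the number ran from 2.69 on chromosome 18 to 8.24 on chromosome 10. The median distance to the nearest other member was 766 kb, with no like value taken for other windows. Of the 464, 94 had another within 100 kb and 32 had another within 10 kb, as 16 pairs. A tested window lay directly beside a member in 117 places, and 14 of these (12.0%) were members too, where 0.549% of all windows are. A tested neighbour was present at 23.7% of members and 39.1% of all windows, so at most members a neighbour could not be seen.

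Neighbouring members did not always behave alike in PML-RARa. At chr5:125932001-125933000 and the adjoining chr5:125933001-125934000, 10.6 kb and 11.6 kb from the start of Bri3bp, the differences were -31.5 and -20.6 points in PML-RARa and -39.5 and -30.7 points in WT. At chr8:125098001-125099000 and chr8:125099001-125100000, near the replication licensing gene Cdt1, levels differed widely between neighbours. The first had PML-RARa means of 59.4% ± 8.49 in CD34- and 64.0% ± 5.46 in CD34+ cells, the second 5.14% ± 6.65 in CD34- and 21.7% ± 4.62 in CD34+ cells (SD, n = 5 each). At chr8:125393001-125394000 and chr8:125394001-125395000, 94.1 kb and 95.1 kb from the start of Acsf3, an acyl-CoA synthetase gene, the PML-RARa differences were -11.4 and 13.2 points. The PML-RARa CD34+ libraries there ranged from 19.4% to 58.6% in the first and from 18.9% to 61.6% in the second. None of these 6 windows passed the test in PML-RARa (adjusted p from 0.405 to 0.926, quasi-binomial model).

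**Figure D5:**
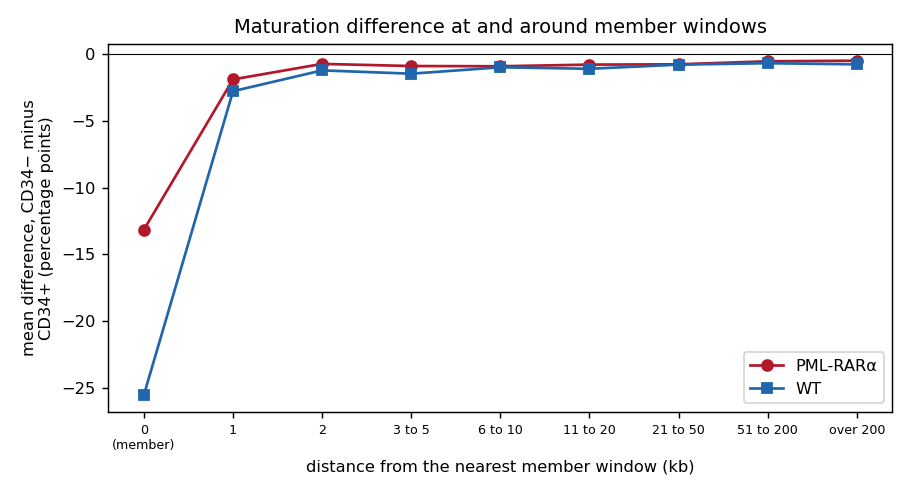
Mean difference CD34- minus CD34+ in percentage points at the 464 windows and at tested windows by distance from the nearest of them (kb), for PML-RARa and WT. The PML-RARa mean is -13.1 points at the windows, -1.88 points in the 103 adjoining windows and -0.711 points at 2 kb.

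The difference was far smaller in windows next to the members, which by choice do not meet the rule. In the 103 adjoining windows that are not members, the mean PML-RARa difference was -1.88 points and the mean WT difference -2.76 points, beside -13.1 and -25.5 points at the members. In PML-RARa, 11.7% of these neighbours were lower by 10 points or more. At 2 kb the mean PML-RARa difference was -0.711 points with 2% lower by 10 points or more, and beyond 200 kb it was -0.471 points with 2.19%. The neighbours had a median PML-RARa CD34+ level of 80.1%, above the members' 52.9%.

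Flowcells differed between the PML-RARa fractions. Median coverage per cytosine ran from 32 to 150 reads in PML-RARa CD34+ libraries and from 48 to 115 reads in PML-RARa CD34- libraries. The part of coverage in the differences was not tested. CD34- libraries came from flowcells A (replicates 6, 14 and 20) and B (replicates 4 and 12), and CD34+ libraries from flowcells B (replicates 3, 5 and 11), C and D. Within flowcell B, which held 2 CD34- and 3 CD34+ PML-RARa libraries, the median difference over members was -14.1 points, with 418 of 464 lower, where 53.6% of all windows were lower. A fit with flowcell as a term, which compares the fractions only within flowcell B, called 0 windows (quasi-binomial model). In it 159 members were lower with an unadjusted p below 0.05. The replicates 5 and 11 of PML-RARa CD34+, which stand at the ends of several values above, had the lowest median coverage of all libraries, at 35 and 32 reads per cytosine. Without replicate 5 the median difference over members was -11.2 points with 426 lower and 5 called, and without replicate 11 it was -13.7 points with 439 lower and 7 called.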

How the data were processed

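CASAVA 1.8.2, Bismark and the mm9 genome are named in the submitters' processing notes. The deposited values are, per the file headers, the count of reads covering each CpG cytosine on each strand and the percent of them reading C and T. No listed cytosine had fewer than 10 reads. Methylated reads were coverage times percent C. Total coverage ran from 83631324 to 362881291 per library. PCR copies were not marked by molecular identifiers, so limits from counts cover counting error only. At 1.37% to 3.22% of cytosines per library, C and T together made up less than 99.9%, and a fit on C and T reads alone was added after seeing this.

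Reads were summed over 1000 bp windows with at least 3 cytosines covered by 10 or more reads in all 20 libraries. PML-RARa CD34- was tested against CD34+ in the 10 PML-RARa libraries alone with a quasi-binomial logistic model per window. Its F test was two-sided, with overdispersion moderated as by limma's squeezeVar (2.39 prior degrees of freedom, at least 1) and Benjamini-Hochberg adjustment over 84524 windows. Python 3.11.15 with scipy 1.17.1 and R 4.3.3 with limma 3.58.1 were used, and the model was tested on simulated data. The windows, lists and naming rule were chosen with earlier results of these data known. Named were the 10 largest WT differences, the windows called in PML-RARa, the 3 most positive there, the 3 on each side of the threshold, the first 3 pairs of neighbours and the extremes of CpG number. Shares of members stand beside those of all windows.

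The rule named windows by position only, since no annotation of mm9 was used. Gene names were added after the data were seen. Of 31396 RefSeq promoter sequences of GRCm38.p6, 10355 (33.0%) of 9126 genes were placed among the mm9 cytosines where at least 10 CpG cytosines coincided and at least 95% of the listed ones were explained, or at least 6 and 100% beside a placed neighbour within 5000 bases of like shift. No coordinate was converted between builds. The samples are FVB/n, and the sequences are of the reference strain.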

Additional observations from a re-analysis of the deposited data

Results flagged for a closer look

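Checked were 132 groups of 5 libraries, the 4 groups at each of 32 named windows and the 4 groups of library medians over all members. In 8, the gap between 1 library and the next made up most of the range. For normally spread values 1 in 20 groups (6.6) would be flagged by chance. Levels near 0% are not so spread, and with the others all at 0% any level above 0% is flagged. At chr12:82043001-82044000, 2.99 kb upstream of Srsf5, PML-RARa CD34- replicate 4 was at 18.1%, with 0% to 4.74% in the others. At chr5:144168001-144169000, WT CD34- replicate 10 was at 1.72% with the others at 0%. At chr10:59791001-59792000, upstream of Vsir, PML-RARa CD34- replicate 20 was at 0.892% with the others at 0%. The reads of these others allow up to 1.48%. WT CD34- replicate 10 was there at 3.07% with the others between 0% and 0.741%. At chr5:116984001-116985000, PML-RARa CD34+ replicate 11 was at 37.3%, with 77.1% to 84.9% in the others. At the pair near Acsf3, WT CD34+ replicate 1 was at 72.8% in chr8:125393001-125394000, with 42.9% to 48.9% in the others, and at 82.1% in chr8:125394001-125395000, with 47.0% to 48.7%. At chr11:80291001-80292000, PML-RARa CD34- replicate 6 was at 28.3%, with 33.7% to 35.8% in the others.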

How the results depend on the processing

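The median PML-RARa difference was negative in each alternative tried and no called window changed sign, while the number of calls moved. With at least 20 reads per cytosine 248 windows met the rule, 230 of them lower in PML-RARa and 0 called. Of these 248, 51 (20.6%) did not overlap, beside 0.626% of all windows, and 136 were lower with an unadjusted p below 0.05, beside 4.48%. With at least 5 cytosines 195 windows met the rule, 189 of them lower and 3 called, and 55 (28.2%) did not overlap, beside 0.708%. A rule at 20 points took 307 windows and one without the demand of no overlap 709. Fitting all 4 groups called 39 members among 52 lower windows (9 were called higher), limma on levels 2 of 3 and limma on log2 ratios 2 of 2. Flowcell as a term, which leaves only flowcell B to compare the fractions, called 0 (159 lower with an unadjusted p below 0.05). Without the 5 libraries of high scatter 0 were called and 234 (50.1%) did not overlap, beside 6.29% of all windows at 3 libraries against 3. A replicate block by the number after # in the titles called 3, and one by pairs of consecutive title numbers 0 (273 with an unadjusted p below 0.05). Whether the numbers pair libraries is not given. Deviations within consecutive pairs correlated between -0.0568 and 0.194 in PML-RARa and between -0.00663 and 0.221 in WT. Other pairs of a CD34- and a CD34+ library lay between -0.183 and 0.152 in PML-RARa and between -0.186 and 0.175 in WT. Consecutive pairs were not above 0.1 throughout, and the main test assumed no pairing. Whether libraries are paired is not settled by these values. Leaving out 1 PML-RARa library at a time gave 2 to 7 calls, 426 to 439 lower windows, 118 to 155 without overlap and medians of -13.8 to -11.2 points. No overlap is more common with 1 library fewer, and was then seen in 1.11% to 1.38% of all windows, beside 0.765% with all libraries. Leaving out 1 WT library gave 455 to 577 windows, 419 to 528 lower, 112 to 125 without overlap (beside 0.765% of all windows), 6 calls and medians of -13.5 to -12.1 points. The cause of the moves was not tested. The p-values rest on 5 libraries a fraction.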
